A study of Homo sapiens with 36 samples.

Results

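BCL6, MME, MYBL1, SERPINA9, LMO2, ITPKB, ASB13, NEIL1 and MAPK10 are 9 genes that mark germinal centre B cells and the lymphomas that resemble them, and they were taken by symbol from a targeted RNA-Seq panel of 2549 genes. All 9 were in the panel, and all 9 passed the filter used for tests, which 2406 genes passed. The panel was counted in lysates of 36 human lymphoma cell lines, which are B-cell cultures for which the labels name no treatment, with 1 library per line and no repeat of any line. The labels name the lines only, so the lymphoma type of each line was taken from general knowledge of it. There were 14 lines of germinal centre B-cell-like diffuse large B-cell lymphoma (GCB), which were DB, DOHH2, KARPAS422, OCILY1, OCILY18, OCILY19, OCILY7, OCILY8, SUDHL10, SUDHL16, SUDHL4, SUDHL6, TOLEDO and WSU_DLCL2. DOHH2 came from a transformed follicular lymphoma. Another 5 lines were of the activated B-cell-like class (ABC), namely HBL1, RIVA, SUDHL2, TMD8 and U2932. The 9 lines of mantle cell lymphoma (MCL) were GRANTA519, JEKO1, JVM2, MAVER1, MINO, REC1, SP49, SP53 and UPN1. A further 5 were of marginal zone lymphoma (KARPAS1718, SSK41 and VL51) or hairy cell leukaemia (HAIR_M and HC_1), and are called MZL/HCL. MEC1, a line of chronic lymphocytic leukaemia, and FARAGE and RCK8, which were placed in no type, entered no comparison of types. Each line comes from 1 patient's tumour, so the spread between lines of a type is a spread between tumours and cultures. The field assigns GCB and ABC class partly from expression of these and related genes, so that comparison is not independent of them.

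Germinal centres are the sites in lymph nodes where activated B cells divide, mutate their antibody genes and are selected. BCL6 is the transcriptional repressor that is required to form them, and it holds down genes of B-cell activation and of plasma cell formation until the cell leaves. MME encodes CD10, a surface peptidase used to recognise germinal centre B cells in pathology, and SERPINA9 encodes a serine protease inhibitor found almost only in these cells. MYBL1 is a transcription factor of the MYB family and LMO2 an adaptor that joins transcription factor complexes. ITPKB phosphorylates inositol trisphosphate and so limits calcium signalling, and MAPK10 is a JNK kinase best known from neurons. ASB13 is a substrate adaptor of a ubiquitin ligase, and NEIL1 is a DNA glycosylase that starts base excision repair.

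The bases before 1 start site each of BCL6 and SERPINA9 are shown because SERPINA9 followed BCL6 most steeply across the lines. A further reason is that these were the members with a match to a searched motif. RefSeq (GRCh38.p14) gave 15 start sites for 7 of the 9 genes, and MYBL1 and LMO2 had no entry. In the 250 bases before each start, 5 motifs were searched on both strands. They were TTCNNNGAA, TTCCTNGAA and TTCCNGGAA, of which the last pair lie within the first, the octamer ATGCAAAT, and a MEF2-type motif. Only TTCNNNGAA and the octamer had a match among the members, each in 1 of the 15 windows. Windows with TTCNNNGAA made up 6.57% of all 35116 windows in the table, and windows with the octamer 1.63%. The BCL6 window is chr3:187745469-187745718 on the minus strand, and its match spans the bases 28 to 20 before the start. The SERPINA9 window is chr14:94476198-94476447 on the minus strand, and it holds the octamer on the opposite strand at 133 to 126 and again at 96 to 89 bases before the start. Both windows lie inside the gene positions given below, which on the minus strand begin at 187745727 for BCL6 and 94479689 for SERPINA9. The starts used are thus internal to those spans. Capitals mark the matches, and each sequence runs 5′ to 3′ along the gene's strand. A match is a run of letters and not evidence that any factor binds.
BCL6: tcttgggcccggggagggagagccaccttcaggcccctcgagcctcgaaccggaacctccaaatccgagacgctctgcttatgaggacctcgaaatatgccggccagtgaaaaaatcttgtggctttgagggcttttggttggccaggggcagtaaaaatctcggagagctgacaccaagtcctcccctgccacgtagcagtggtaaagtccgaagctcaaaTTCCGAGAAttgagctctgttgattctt
SERPINA9: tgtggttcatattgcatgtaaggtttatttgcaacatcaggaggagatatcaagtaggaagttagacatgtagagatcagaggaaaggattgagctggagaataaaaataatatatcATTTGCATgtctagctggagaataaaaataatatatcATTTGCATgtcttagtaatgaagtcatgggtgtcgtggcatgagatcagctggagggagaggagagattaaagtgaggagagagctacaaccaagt

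Total counts per library ran from 6422917 to 13451527, with a median of 10476681. Levels are counts scaled to library size (CPM) after scaling by TMM factors, and they compare lines for 1 gene, since the capture efficiency of each gene's probes is unknown. Median TMM factors were 0.890 in GCB lines, 1.24 in ABC lines, 0.993 in MCL lines and 1.01 in MZL/HCL lines. The B-lineage markers in the panel, 6 of the 8 listed, were detected in all 36 lines. CCND1 is the cyclin gene activated in MCL, and among lines known as MCL it was at 2051 CPM or more in 4. It was under 100 CPM in the other 5 (REC1, SP49, UPN1, JEKO1 and SP53). Those 5 ran from 7.90 CPM in SP53 to 91.2 CPM in REC1, beside a median of 10.6 CPM in GCB lines. Their CCND1 level thus does not bear out the type taken from the line's name, and the cause was not tested. The 4 measured T and NK markers were CD3D, CD2, CD5 and GNLY. Their median sums were 32.7 CPM in GCB, 101 CPM in ABC, 64.6 CPM in MCL and 38.4 CPM in MZL/HCL lines. CD3D was highest in REC1 (490 CPM) and CD5 in MINO (211 CPM), both MCL lines, so these sums need not come from other cells. The 6 myeloid markers summed to medians of 137 CPM in GCB lines, 164 CPM in ABC lines, 109 CPM in MCL lines and 136 CPM in MZL/HCL lines. The 3 stromal and endothelial markers summed to medians of 132 CPM in GCB lines, 111 CPM in ABC lines, 192 CPM in MCL lines and 215 CPM in MZL/HCL lines. The part of these markers in the results was not tested. Of the hairy cell markers, ANXA1 and IL2RA were in the panel, and their sum was highest in SUDHL16, a GCB line. No measured B-lineage or T and NK marker was at a count of 0 in any line. The MEC1 library stood apart, with 424 counts in its highest control probe, against 64 in the next library.

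BCL6, on chromosome 3 at 187721377 to 187745727, was highest in GCB lines and spread widely within them. It had a lowest level of 1.76 CPM in OCILY19, a median of 36.2 CPM and a highest level of 464 CPM in SUDHL16 among the 14 GCB lines. Among ABC lines it had 6.45 CPM in RIVA, 18.1 CPM in HBL1, 21.1 CPM in SUDHL2, 25.6 CPM in TMD8 and 49.7 CPM in U2932. The 9 MCL lines ran from 3.73 CPM in JEKO1 through a median of 8.10 CPM to 18.1 CPM in SP53. MZL/HCL lines had 4.38 CPM in KARPAS1718, 7.03 CPM in VL51, 13.4 CPM in HC_1, 13.5 CPM in HAIR_M and 55.6 CPM in SSK41. Only SUDHL16 and OCILY1 (330 CPM) exceeded 100 CPM, and the next line was 1.80 log2 units lower. The level in OCILY19 rested on 15 counts (95% Poisson interval 0.984 to 2.90 CPM, counting error only) and did not exceed that library's highest control probe. MEC1 had 41.1 CPM, FARAGE 11.8 CPM and RCK8 69.0 CPM.

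**Figure D1:**
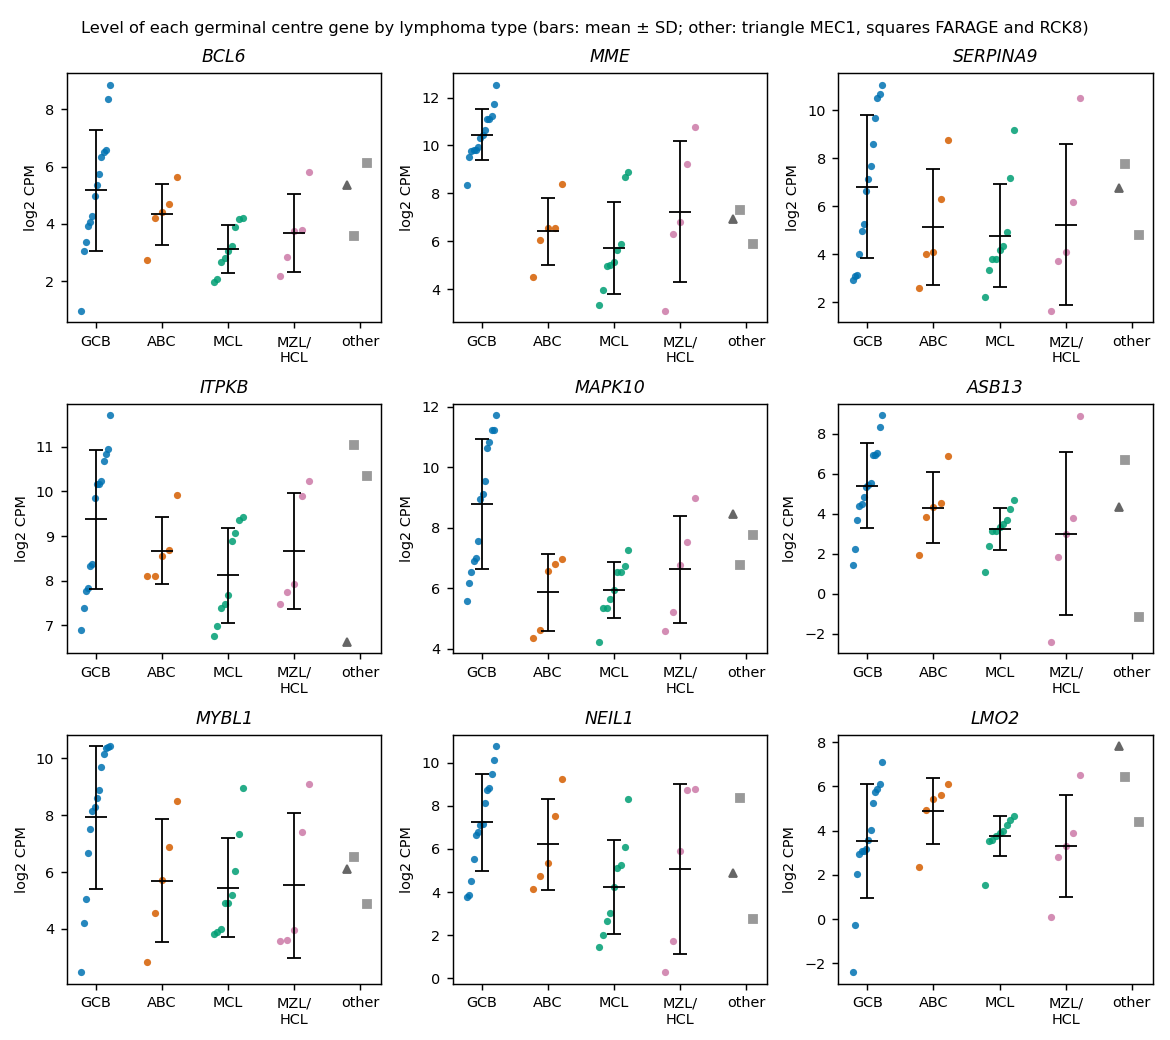
Level of each of the 9 genes (log2 CPM, vertical axes) in every line, grouped by lymphoma type on the horizontal axes with GCB on the left, 1 point per line, with bars for the mean and SD of each type and MEC1 (triangle), FARAGE and RCK8 (squares) at the right. MME in GCB lines lies from 326 to 5962 CPM, and all but DOHH2 of them lie above the highest ABC line, while the points for LMO2 overlap throughout.

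MYBL1 and LMO2 encode factors that act on transcription, and the levels of MYBL1 were highest in GCB lines. MYBL1, on chromosome 8 at 66562175 to 66614247, ran in GCB lines from 5.36 CPM in DOHH2 through a median of 351 CPM to 1394 CPM in SUDHL6. In ABC lines it had 6.91 CPM in HBL1, 23.3 CPM in SUDHL2, 52.8 CPM in TMD8, 117 CPM in RIVA and 362 CPM in U2932. The MCL lines ran from 14.0 CPM in MINO through a median of 29.7 CPM to 502 CPM in GRANTA519. The MZL/HCL lines had 11.7 CPM in HC_1, 12.1 CPM in HAIR_M, 15.5 CPM in VL51, 171 CPM in KARPAS1718 and 547 CPM in SSK41. MYBL1 passed 100 CPM in 11 of 14 GCB lines, against 2 of 5 ABC, 2 of 9 MCL and 2 of 5 MZL/HCL lines.

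LMO2, on chromosome 11 at 33858576 to 33892289, was not a marker of GCB lines in these libraries. Among GCB lines it had a lowest level of 0 CPM in SUDHL16, a median of 10.3 CPM and a highest level of 139 CPM in SUDHL10. Among ABC lines it had 4.95 CPM in RIVA, 30.5 CPM in SUDHL2, 42.2 CPM in HBL1, 48.3 CPM in TMD8 and 69.3 CPM in U2932. The MCL lines ran from 2.74 CPM in JEKO1 through a median of 14.8 CPM to 25.2 CPM in MINO. The MZL/HCL lines had 0.880 CPM in SSK41, 6.74 CPM in VL51, 9.72 CPM in KARPAS1718, 14.6 CPM in HAIR_M and 90.7 CPM in HC_1. MEC1 was the highest of all 36 lines at 227 CPM, and 7 of 14 GCB lines were under 10 CPM. A count of 0 in SUDHL16 allowed up to 0.393 CPM at that depth, and SSK41's level also lay at or below its highest control probe. The spread within GCB lines was 2.57 log2 units (SD, n = 14), the group means of log2 CPM being 3.52 in GCB lines and 4.89 in ABC lines.

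MME, on chromosome 3 at 155024124 to 155183729, was the member most uniformly high in GCB lines. Its level in those 14 lines ran from 326 CPM in DOHH2 through a median of 1333 CPM to 5962 CPM in OCILY1. The ABC lines had 22.4 CPM in RIVA, 66.2 CPM in HBL1, 94.5 CPM in TMD8, 94.5 CPM in SUDHL2 and 338 CPM in U2932. The MCL lines ran from 9.96 CPM in MAVER1 through a median of 35.6 CPM to 471 CPM in JEKO1, with UPN1 also high at 412 CPM. The MZL/HCL lines had 8.35 CPM in VL51, 79.0 CPM in HAIR_M, 111 CPM in HC_1, 599 CPM in KARPAS1718 and 1763 CPM in SSK41. Its mean log2 CPM was 10.45 ± 1.05 in GCB lines (SD, n = 14), 6.42 ± 1.40 in ABC lines (n = 5), 5.73 ± 1.90 in MCL lines (n = 9) and 7.24 ± 2.95 in MZL/HCL lines (n = 5). All but 1 GCB line lay above the highest ABC line and above the highest MCL line, DOHH2 being the exception in both.

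SERPINA9, on chromosome 14 at 94462717 to 94479689, was spread widely within GCB lines. It ran there from 7.50 CPM in OCILY19 through a median of 121 CPM to 2141 CPM in KARPAS422. The ABC lines had 5.79 CPM in RIVA, 16.1 CPM in HBL1, 16.9 CPM in SUDHL2, 77.7 CPM in TMD8 and 435 CPM in U2932. The MCL lines ran from 4.49 CPM in JEKO1 through a median of 17.9 CPM to 578 CPM in REC1. The MZL/HCL lines had 2.93 CPM in VL51, 13.1 CPM in HAIR_M, 17.1 CPM in KARPAS1718, 72.2 CPM in HC_1 and 1433 CPM in SSK41. Single lines stood far above the rest of each of the other types, U2932 among ABC, REC1 among MCL and SSK41 among MZL/HCL.

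The 2 signalling enzymes were detected at 10 CPM or more in all 36 lines. MAPK10, on chromosome 4 at 85990007 to 86594625, ran in GCB lines from 47.5 CPM in OCILY19 through a median of 525 CPM to 3392 CPM in SUDHL4. In ABC lines it had 20.4 CPM in RIVA, 24.4 CPM in HBL1, 95.3 CPM in U2932, 112 CPM in SUDHL2 and 126 CPM in TMD8. In MCL lines it ran from 18.6 CPM in MAVER1 through a median of 61.0 CPM to 155 CPM in SP53, and MZL/HCL lines had 23.7 CPM in KARPAS1718, 37.3 CPM in SSK41, 109 CPM in VL51, 187 CPM in HAIR_M and 508 CPM in HC_1. U2932 and SSK41, the highest line of their type for most other members, were not the highest for MAPK10. ITPKB, on chromosome 1 at 226631690 to 226739323, varied least of the 9, with an SD of 1.41 log2 units over the 36 lines. Its GCB lines ran from 118 CPM in OCILY19 through a median of 1039 CPM to 3336 CPM in SUDHL4, its ABC lines from 274 to 965 CPM, its MCL lines from 109 to 686 CPM and its MZL/HCL lines from 178 to 1204 CPM.

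ASB13, on chromosome 10 at 5638867 to 5666595, ran in GCB lines from 2.55 CPM in OCILY1 through a median of 42.0 CPM to 484 CPM in SUDHL16. Its ABC lines ran from 3.56 to 116 CPM, its MCL lines from 1.94 to 25.3 CPM and its MZL/HCL lines from 0 CPM in KARPAS1718 to 471 CPM in SSK41. The count of 0 in KARPAS1718 allowed up to 0.411 CPM, and the level in RCK8, 0.257 CPM, rested on 3 counts. NEIL1, on chromosome 15 at 75346955 to 75357114, ran in GCB lines from 13.4 CPM in OCILY19 through a median of 140 CPM to 1755 CPM in SUDHL4. Its ABC lines ran from 17.6 to 608 CPM, its MCL lines from 2.59 to 316 CPM and its MZL/HCL lines from 1.02 CPM in VL51 to 436 CPM in KARPAS1718. NEIL1 had an SD of 2.70 log2 units, ranked 37 of the 2406 genes tested, against a median of 1.20 over those genes, so its levels varied more than most genes of the panel. Against each other type, the range of GCB lines overlapped for ASB13, for NEIL1 and for every other member.

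**Figure D2:**
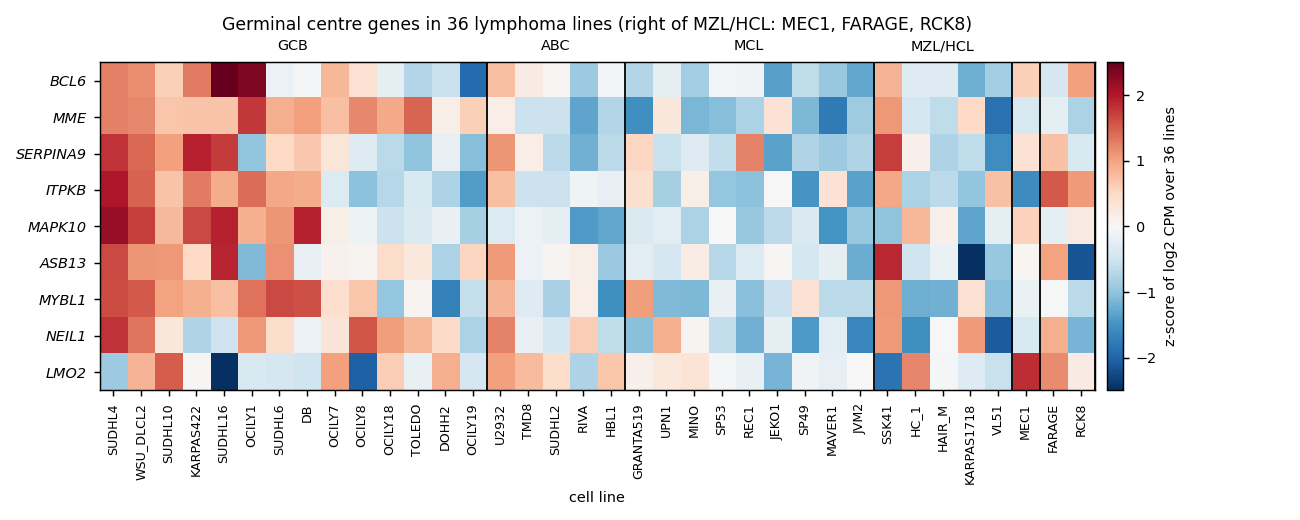
Level of each of the 9 genes (rows) in each of the 36 lines (columns, grouped by type with GCB on the left), as z-scores of log2 CPM over the 36 lines. SUDHL4 and WSU_DLCL2 are high for most genes, and LMO2 departs from the other rows.

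Between GCB and MCL lines, 3 of the 9 genes were higher in GCB lines, and none was lower. The call is an adjusted p under 0.05 in edgeR's quasi-likelihood test, adjusted over the 2406 genes, and 1.83% of the genes were called higher and 2.37% lower. MAPK10 was higher by 3.78 ± 0.75 log2 units (SE, 13.8-fold, adjusted p = 0.00213). MME was higher by 3.86 ± 0.80 log2 units (14.5-fold, adjusted p = 0.00317), and BCL6 by 3.19 ± 0.75 log2 units (9.11-fold, adjusted p = 0.0108). All 9 MCL lines lay below the GCB median for each of these 3 genes, as they also did for ASB13 and ITPKB. The share of all genes with that pattern was not counted, so it is no result about the members. The ranges of the groups overlapped for every member. Another 5 genes missed the threshold: ASB13 (3.14 ± 0.98, adjusted p = 0.0588), ITPKB (1.58 ± 0.53, adjusted p = 0.0829), MYBL1 (2.53 ± 0.91, adjusted p = 0.103), NEIL1 (2.79 ± 1.02, adjusted p = 0.113) and SERPINA9 (2.43 ± 1.16, adjusted p = 0.246). LMO2 gave 1.00 ± 0.76 log2 units (adjusted p = 0.467), although its mean log2 CPM was 3.52 in GCB lines and 3.75 in MCL lines. The fitted fold compares mean levels and the second measure mean logs, so the signs can differ. The median of the 9 was 2.79 log2 units, beside 0.28 over all genes tested. The calls for MAPK10, MME and BCL6 held with each line left out in turn. BCL6 was not called with limma-voom (1.99 log2 units, adjusted p = 0.139) or on the authors' deposited log2 values with limma (2.00 log2 units, adjusted p = 0.106), and MAPK10 was not called with limma-voom (2.75 log2 units, adjusted p = 0.0533). DESeq2 also called ASB13 (adjusted p = 0.00200), NEIL1 (adjusted p = 0.0113), MYBL1 (adjusted p = 0.0160) and ITPKB (adjusted p = 0.0267), and a fit of the GCB and MCL lines alone called ASB13 (adjusted p = 0.0236). With the 5 MCL lines of low CCND1 left out, an alternative chosen after seeing the data, the BCL6 estimate was 3.83 log2 units with an adjusted p of 0.0766, and 2 members were called.

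Between GCB and ABC lines, MME and MAPK10 were higher in GCB lines and no member was lower. MME was higher by 3.87 ± 1.04 log2 units (14.6-fold, adjusted p = 0.0437) and MAPK10 by 3.73 ± 0.98 log2 units (13.3-fold, adjusted p = 0.0363). Over all genes 0.333% were called higher and 1.41% lower in GCB lines. All 5 ABC lines lay below the GCB median for both genes, and also for ITPKB, which was not called. Here too the share of all genes with that pattern was not counted, so it is no result about the members. The estimate for BCL6 was 1.89 ± 0.89 log2 units (adjusted p = 0.308), and those for MYBL1, SERPINA9, ITPKB, ASB13 and NEIL1 were 2.32, 2.18, 1.18, 1.5 and 1.11 log2 units, none of which passed. LMO2 gave -0.37 ± 0.88 log2 units (adjusted p = 0.905). Of the 9 estimates, 8 were positive, beside 56.0% of all genes, and their median was 1.89 log2 units, beside 0.12. Both calls lay near the threshold, and the estimates changed little where a call was lost by leaving out a line. The MME call was lost on leaving out any of DB, HBL1, OCILY1, OCILY7, OCILY8, RIVA, SUDHL2, SUDHL4, SUDHL6, TMD8 or TOLEDO (adjusted p up to 0.149), while its estimate over all 33 such fits ran from 3.58 to 4.70 log2 units. That for MAPK10 was lost without any of DB, HBL1, RIVA, SUDHL2, SUDHL4, TMD8 or U2932 (adjusted p up to 0.137), with estimates from 3.44 to 4.00 log2 units over the 33 fits. Neither call was made when counts were scaled by upper quartile or by library size alone, which shift the median of all genes by -0.20 and -0.26 log2 units, nor with the log2 TMM factor as a covariate. The MME estimates there were 3.53, 3.41 and 4.13 log2 units and those of MAPK10 3.31, 3.19 and 3.78 log2 units. The MAPK10 call was also lost with limma-voom (2.87 log2 units, adjusted p = 0.164) and on the authors' log2 values (2.98 log2 units, adjusted p = 0.0818). At the same estimate of 3.73 log2 units it was lost in a fit of the GCB and ABC lines alone (adjusted p = 0.0901) and without the 5 MCL lines of low CCND1 (adjusted p = 0.0655). Since the median TMM factor was 0.890 in GCB lines and 1.24 in ABC lines, the part of library scaling in these calls was not tested beyond those alternatives.

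Between GCB and MZL/HCL lines, none of the 9 genes was called by edgeR, and DESeq2 called MAPK10 alone. In edgeR's test 2 of the 9 had an unadjusted p under 0.05, beside 309 of the 2406 genes tested. Over all genes 0.125% were called higher and 3.08% lower in GCB lines. The MAPK10 estimate was 2.54 ± 0.91 log2 units (adjusted p = 0.154) and that of BCL6 2.25 ± 0.91 log2 units (adjusted p = 0.239). SSK41 set several of the others. With that line left out, the SERPINA9 estimate was 4.24 log2 units, against 0.70 with it, and the ASB13 estimate was 4.03 log2 units, against 0.01 with it, and neither was called. U2932 had the like place among ABC lines, where the SERPINA9 estimate was 4.10 log2 units without it and 2.18 log2 units with it. The 3 comparisons use the same GCB lines, so they are not independent of each other, and whether the differences differ between types was not tested.

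**Figure D3:**
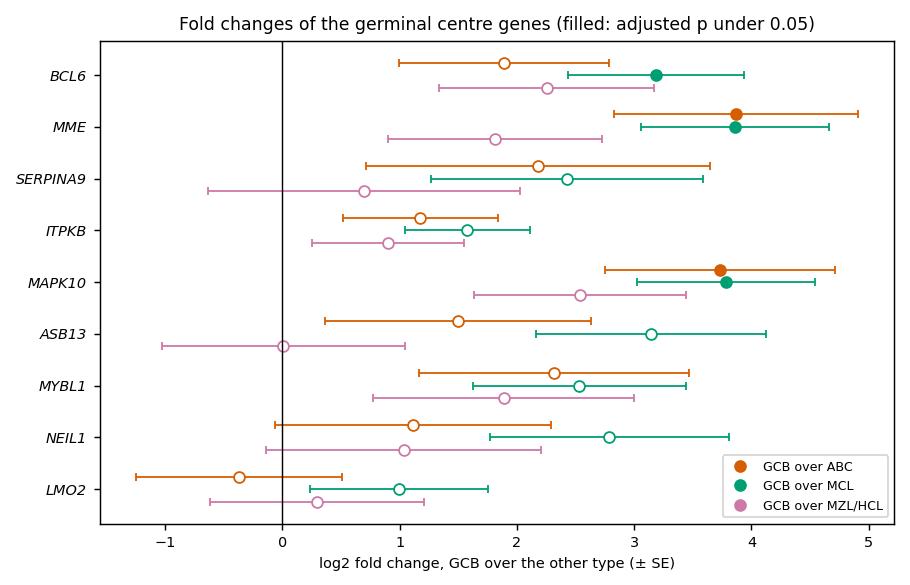
Log2 fold change of each of the 9 genes in GCB lines over ABC, MCL and MZL/HCL lines (horizontal axis, with SE as bars), with filled symbols for calls at an adjusted p under 0.05. MME and MAPK10 are called against ABC and MCL lines, and BCL6 against MCL lines.

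The lines differed in how many of the 9 genes they had at a high level. The mean of the 9 z-scores was highest in SUDHL4 (1.41) and WSU_DLCL2 (1.31), and WSU_DLCL2 was the only line with all 9 genes in the top 12 of 36 lines, SUDHL4 having 8. By type it averaged 0.48 ± 0.59 in GCB lines (SD, n = 14), -0.15 ± 0.54 in ABC lines (n = 5), -0.52 ± 0.24 in MCL lines (n = 9) and -0.31 ± 0.59 in MZL/HCL lines (n = 5). Outside GCB, U2932 (0.74) and SSK41 (0.65) were the highest, each with 7 of 9 genes in the top 12. Within GCB, OCILY19 (-0.66) and DOHH2 (-0.30) were the lowest. DOHH2 also had the highest IRF4 (1746 CPM) and PRDM1 (572 CPM) of all 36 lines, both regulators of plasma cell formation. FARAGE had 0.50, MEC1 0.10 and RCK8 -0.29, and JVM2 (-0.97) was the lowest line.

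Single members departed from the pattern of BCL6 in particular lines. OCILY1 had the second-highest BCL6 (330 CPM) and the highest MME (5962 CPM), yet 8.76 CPM of SERPINA9 and 2.55 CPM of ASB13. SUDHL16 had the highest BCL6 and ASB13, and no count for LMO2. OCILY19 had the lowest BCL6 and still 738 CPM of MME. SSK41, known as a marginal zone line, had 1763 CPM of MME, 1433 CPM of SERPINA9 and 471 CPM of ASB13 with 37.3 CPM of MAPK10. TOLEDO had 3443 CPM of MME beside 8.13 CPM of BCL6 and 8.38 CPM of SERPINA9. GCB lines with high MME thus included lines high and low in BCL6.

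Across the 36 lines all 8 other members had positive slopes on BCL6, and that of LMO2 was -0.23 with the log2 TMM factor as a covariate. A slope is the log2 change in a gene per log2 unit of BCL6 in edgeR's fit, and each is given as a description without a test. SERPINA9 was steepest, at 1.27 ± 0.20 (SE) over 36 lines, 1.48 ± 0.24 with the type as a term over 33 lines and 1.21 ± 0.30 over the 14 GCB lines alone. MAPK10 had 0.91 ± 0.16, 0.65 ± 0.19 and 0.66 ± 0.25 in the same fits. Over the same 33 lines without the type term, an alternative chosen after seeing the data, MAPK10 had 0.94 ± 0.17 and SERPINA9 1.35 ± 0.20. ASB13 (0.63), MYBL1 (0.63), NEIL1 (0.51), ITPKB (0.43) and MME (0.42) were shallower over 36 lines, and LMO2 had 0.33 ± 0.25. On the log2 CPM scale LMO2 had a Pearson r of -0.14 and a Spearman rho of 0.12 with BCL6 over the 36 lines, so its direction depended on the measure. Over the GCB lines alone LMO2 had -0.09 ± 0.43 and the other 7 slopes stayed positive. The median member slope was 0.57 over 36 lines, beside 0.03 for all genes, and 0.41 over GCB lines alone, beside 0.02. The share of positive slopes over all genes was 56.3% in the first of these fits and 54.9% in the GCB fit. Lines share a library's scaling across genes, so these slopes also carry that.

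**Figure D4:**
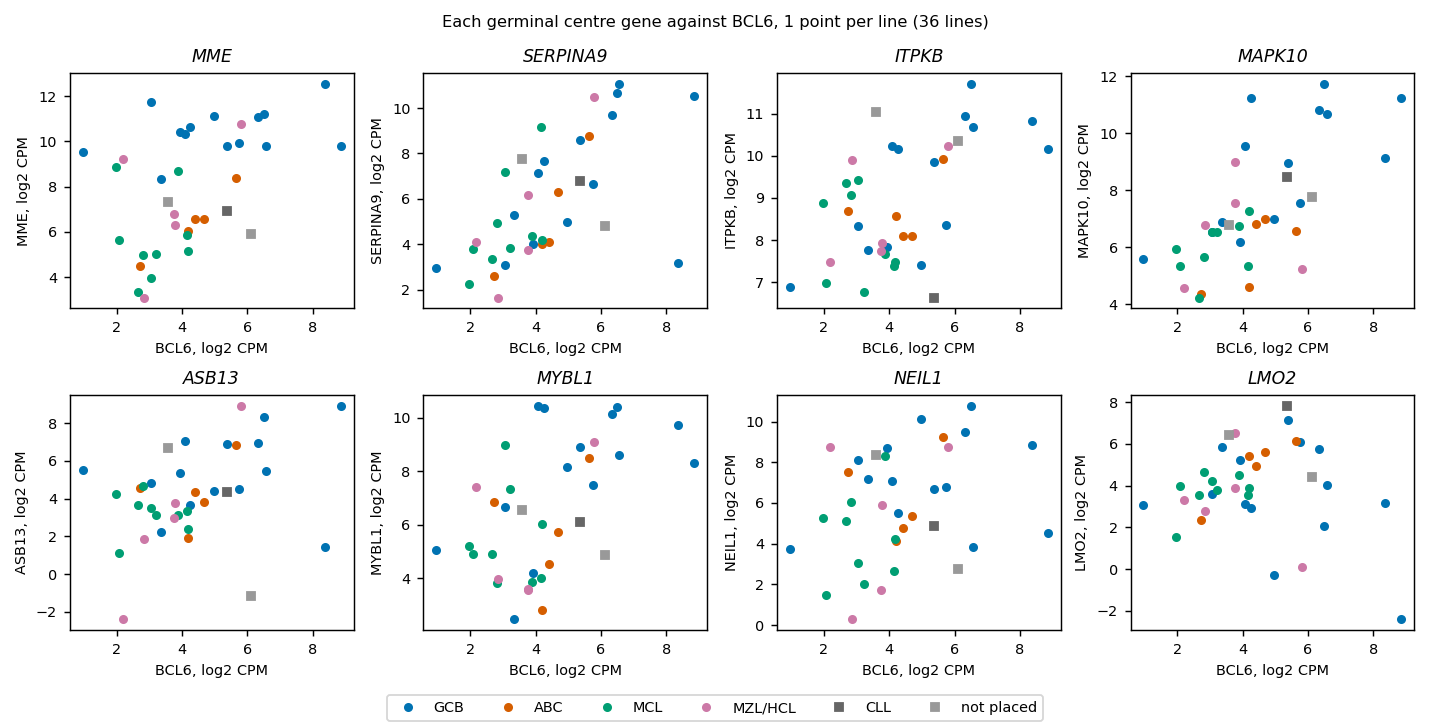
Level of each of the other 8 genes (log2 CPM, vertical axes) against BCL6 (log2 CPM, horizontal axes) in 36 lines, 1 point per line, coloured by type. SERPINA9 has the steepest slope, with OCILY1 far below the other lines of high BCL6, and LMO2 has the shallowest, with a Pearson r of -0.14 on the scale plotted.

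Between pairs of the 9 genes, Spearman's rho over the 36 lines ran from -0.30 to 0.69, with a median of 0.42, and 31 of 36 pairs were positive. BCL6 and MAPK10 were the closest pair (0.69), followed by BCL6 and SERPINA9 (0.66) and by MME and NEIL1 (0.66). With each type's mean removed from 33 lines, 29 pairs stayed positive and the median was 0.28. BCL6 with SERPINA9 (0.68) and with MAPK10 (0.63) stayed high there, while MME with MAPK10 had 0.09, against 0.47 without that step. LMO2 had a median rho of -0.06 with the other 8, and its lowest was -0.30 with MYBL1. These are descriptions over lines that share library scaling, and no p is given.

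**Figure D5:**
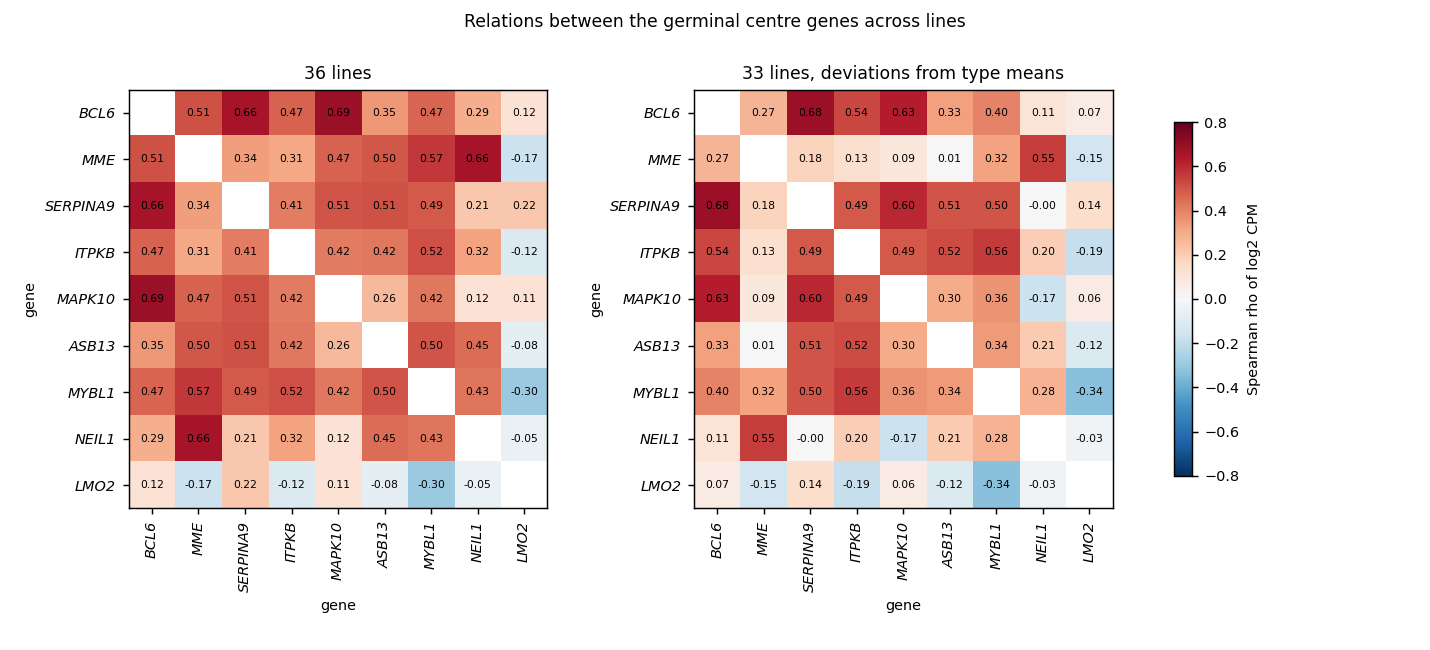
Spearman's rho of log2 CPM between each pair of the 9 genes, over 36 lines (left) and over 33 lines after removal of each type's mean (right). The LMO2 row is the palest, from -0.30 to 0.22 on the left and from -0.34 to 0.14 on the right.

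Of 30 further germinal centre genes listed, 12 were in the panel. None was called against ABC or MZL/HCL lines by edgeR, and 1 was called against MCL lines. Beside the shares over all genes given above, counts of 0 or 1 among 12 genes are no result about this list. That gene was PTK2, the focal adhesion kinase, higher in GCB than MCL lines by 4.20 ± 0.70 log2 units (adjusted p = 0.000349), with medians of 623 CPM in GCB lines and 39.7 CPM in MCL lines. The median of these 12 was 0.11 log2 units against ABC lines, beside 0.12 over all genes, 0.18 against MCL lines, beside 0.28, and 0.21 against MZL/HCL lines, beside 0.09. EZH2, a histone methyltransferase active in germinal centre B cells, gave 0.02 log2 units in GCB against ABC lines (adjusted p = 0.996).

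Of 19 measured cofactors and regulators of BCL6, STAT3 was lower in GCB than ABC lines (-1.98 ± 0.45 log2 units, adjusted p = 0.0124), with medians of 236 CPM in GCB lines and 553 CPM in ABC lines. FOXO3 was higher in GCB than MCL lines (1.19 ± 0.31 log2 units, adjusted p = 0.0225), and STAT5A was lower in GCB than MZL/HCL lines (-3.07 ± 0.87 log2 units, adjusted p = 0.0432). The other genes of this list did not pass in those comparisons. Of 22 measured genes known to be repressed by BCL6, CXCR3, a chemokine receptor, was lower in GCB lines than in MCL lines (-6.02 ± 1.09 log2 units, adjusted p = 0.000844) and than in MZL/HCL lines (-5.84 ± 1.14 log2 units, adjusted p = 0.00311), and none was called against ABC lines. Its median was 0.432 CPM in GCB lines, against 28.3 CPM in MCL lines and 10.4 CPM in MZL/HCL lines. In GCB libraries 3 counts, the limit used for a count of 0, made from 0.197 CPM (SUDHL10) to 0.474 CPM (OCILY8). The GCB median of CXCR3 was thus near the floor, and the size of its folds carries that limit. Beside the shares over all genes given above, counts of 0 or 1 per comparison among 19 or 22 genes are no result about these lists. The median of the list was -0.32, -0.64 and -0.77 log2 units against ABC, MCL and MZL/HCL lines, beside 0.12, 0.28 and 0.09 over all genes.

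Genes of activated B cells were lower in GCB lines where they were called. Of 17 measured, 4 were lower in GCB than ABC lines, 3 lower than in MCL lines and 4 lower than in MZL/HCL lines, beside 1.41%, 2.37% and 3.08% of all genes, and none was higher. The list's medians were -1.44, -1.10 and -1.11 log2 units against ABC, MCL and MZL/HCL lines, beside 0.12, 0.28 and 0.09 over all genes. The lists were chosen with earlier results of these data known, and GCB and ABC class is assigned partly from expression of related genes. These counts and medians are therefore a description and not independent support. BATF, a transcription factor of activated lymphocytes, was lower in all 3 comparisons, by -4.43 ± 0.70 log2 units against ABC lines (adjusted p = 0.000396), -2.69 ± 0.62 log2 units against MCL lines (adjusted p = 0.00848) and -4.17 ± 0.70 log2 units against MZL/HCL lines (adjusted p = 0.000531). BCL2A1, a survival factor, was also lower in all 3, with medians of 129 CPM in GCB lines, 2840 CPM in ABC lines, 715 CPM in MCL lines and 1731 CPM in MZL/HCL lines. PIM2 and PTPN1 were lower against ABC lines (-2.51 and -1.70 log2 units), CCL22 against MCL and MZL/HCL lines (-4.84 and -6.47) and TNFAIP3 against MZL/HCL lines (-2.69). None of 8 plasma cell genes was called in any of the 3 comparisons by edgeR.

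The genes most like BCL6 over the 36 lines, of 2397 outside the set, were PDGFD (Spearman's rho 0.80), COL4A3 (0.73), MAPK8IP2 (0.71), PTK2 (0.70) and COL4A4 (0.69). The most opposite were PIK3CD (-0.71), SLC38A2 (-0.70), FANCF (-0.66), IGFBP4 (-0.65) and CDKN1B (-0.63). Likeness to the mean z-score of all 9 gave PDGFD (0.79), PTK2 (0.76), COL4A3 (0.75), COL4A4 (0.72) and KLRG1 (0.67) at the top. TET2 (-0.77), AHNAK (-0.75), CCR7 (-0.73), CD44 (-0.73) and HSP90B1 (-0.71) were at the bottom. PDGFD, a growth factor, PTK2, and COL4A3 and COL4A4, which encode chains of type IV collagen, were near the top by both measures.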

How the data were processed

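RNA was measured in lysates of 36 cell lines by a targeted RNA-Seq panel, sequenced on a NextSeq per the labels' protocols, with 1 library per line. The submitters' processing notes name build hg38. No aligner or counting method is given in the sources used here. The authors deposited a table of raw counts with 2559 rows, of which 2549 are genes and 10 are control probes that entered neither library sizes nor tests (at most 0.0265% of counts). They also deposited log2 values, which equalled the log2 of the count times 1 factor per library, plus 1, within 0.00527, and which served as an alternative.

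Counts were scaled by TMM in edgeR 4.0.16 (R 4.3.3), and the 2406 genes that reached 10 CPM in 4 or more lines were tested. The log2 CPM used a prior count of 2. The types were compared by edgeR's quasi-likelihood test in 1 fit over 33 lines, with Benjamini-Hochberg adjustment over the 2406 genes and a threshold of 0.05. SE is the log2 fold change divided by the square root of F. Because each library is 1 line, p-values measure the spread between lines, and intervals cover counting error at 95% only. For a count of 0 the upper limit was set at 3 counts. Slopes on BCL6 used the same counts. The genes named are the 9 members, called genes of the lists (up to 6 per list and comparison by size) and the 5 most and least like BCL6 and the mean z-score. EZH2, IRF4, PRDM1, CCND1, ANXA1 and IL2RA were named after their values were seen, for their known role. CD3D, CD2, CD5 and GNLY were named as the measured part of a fixed list. Results for some genes of the lists are not reported here. The members and lists were chosen with earlier results of these data known. Alternatives were DESeq2 1.42.0 size factors and Wald test, upper-quartile factors, library size alone, no filter, a 50 CPM filter, limma-voom (limma 3.58.1), the authors' log2 values, a fit of the 2 types compared, the log2 TMM factor as covariate, and each line left out. Leaving out the MCL lines with CCND1 under 100 CPM, and the slopes over 33 lines without the type term, were chosen after seeing the data. The test was checked on simulated counts. Types come from knowledge of the named lines, not from the labels. Gene positions are from GENCODE release 29 on GRCh38, and start sites and the sequences before them from RefSeq on GRCh38.p14.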

Additional observations from a re-analysis of the deposited data

Results flagged for a closer look

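LMO2 in MCL lines had 1 line apart from the others: JEKO1 at 2.74 CPM, against 11.4 CPM in MAVER1, the next lowest of 9 lines. The gap made up 0.637 of the group's range on the log2 scale, above Dixon's 95% critical value of 0.493. Chance flags about 1 in 20 groups, and 1 of 27 groups tested was flagged. JEKO1 also had the lowest BCL6 (3.73 CPM) and SERPINA9 (4.49 CPM) of the MCL lines, and the highest MME (471 CPM).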

How the results depend on the processing

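No paired analysis was possible because each library is a different line and replicate numbers only name the lines. Against ABC lines, 2 members were called: 0 with upper-quartile factors, library size alone or the TMM covariate, and 1 with voom, the authors' log2 values, the 2-type fit or without the low-CCND1 MCL lines. Genes called higher there, 8, became 5 with upper-quartile factors, 1 with library size alone, 76 with DESeq2, 4 with voom, 1 with the authors' log2 values, 1 with the 2-type fit, 0 with the covariate and 2 without the low-CCND1 lines. Genes called lower, 34, became 4 with the authors' log2 values. Leaving out 1 line gave 0 to 2 members, 0 to 18 genes higher and 22 to 40 lower; the higher count moved over 1.5 times without SUDHL2 or TMD8 (0), U2932 (1), HBL1 or SUDHL4 (2), DB, OCILY1 or SUDHL6 (4), WSU_DLCL2 (15) or RIVA (18), and the lower without HBL1 (22).

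Against MCL lines the 3 members became 7 with DESeq2, 4 with the 2-type fit, 1 with voom and 2 without the low-CCND1 lines. Genes called higher, 44, became 109 with DESeq2, 21 with voom, 24 with the authors' log2 values, 97 with the covariate and 11 without those lines. Genes called lower, 57, became 105 with DESeq2 and 36 with voom. Leaving out 1 line gave 3 to 4 members, 26 to 59 genes higher (26 without JVM2 or SP49, 27 without SP53) and 37 to 71 lower (37 without JVM2).

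Against MZL/HCL lines DESeq2 called 1 member, and leaving out 1 line gave 0 in each case. Genes called higher, 3, became 5 with upper-quartile factors, 19 with DESeq2, 0 with voom, 1 with the authors' log2 values and 5 with the covariate. Genes called lower, 74, became 14 with voom and 6 with the authors' log2 values. Leaving out 1 line gave 1 to 6 higher (1 without HAIR_M or HC_1, 6 without KARPAS1718) and 35 to 89 lower (35 without HAIR_M, 38 without VL51).

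The uncalled LMO2 estimate turned to 0.0963 against ABC lines and to -0.00177 against MCL lines with the covariate, to -0.27 with voom and -0.36 with the authors' log2 values against MCL lines, and to -0.0498 against MZL/HCL lines with the covariate. Leaving out SSK41 or SUDHL10 there gave -0.0125 and -0.170, and the range on leaving out 1 line was -0.17 to 1.92. The uncalled ASB13 estimate against MZL/HCL lines, 0.01, turned to -0.0676 with DESeq2 size factors, -0.0674 with its Wald test, -0.14 with upper-quartile factors, -0.29 with library size alone, -0.27 with the covariate, and ran from -0.50 to 4.03 on leaving out 1 line. The slope of MYBL1 on BCL6 was 0.86 with the covariate, and that of LMO2 was 0.66 with library size alone and -0.23 with the covariate. Of 1188 fold changes of single members under the alternatives, 1124 kept their direction and their side of the threshold. Another 32 lost a call, 11 gained one and 21, all uncalled, changed sign. The lost calls were 14 for MME and 14 for MAPK10 against ABC lines, and 3 for BCL6 and 1 for MAPK10 against MCL lines. Most member estimates were uncalled at the start and could lose no call. Leaving out a line of a type outside the comparison left the estimate as it was. The 1124 thus do not measure how firm the calls were. The cause of the lost calls and other shifts was not tested. Depth limits little here, as counting error gave at most 2.16% of the variance of any member.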
